A study of Homo sapiens with 8 samples.

Results

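A MEL202 line labelled as having its mutant SF3B1 allele knocked out was set against parental MEL202 cells, with 2 libraries a side, which are 4 of the 8 RNA-sequencing libraries of the series. Loci entered the comparison where they carried a gene name and averaged 5 or more across the 8 libraries, which left 8810 of 32087 loci. MEL202 is an established human uveal melanoma cell line with one mutant and one wildtype copy of SF3B1. The knockout line had 1 library with Shld and 1 without it, and parental cells likewise had 1 library with Shld and 1 without it. Shld is a small ligand that protects proteins fused to a destabilising domain from degradation. The label of the knockout line gives 2 days. Its column names instead describe cells that also carry the destabilising domain at wildtype SF3B1. Only the column name of the knockout library without Shld gives a time, 4 days. For parental cells without Shld, 4 days stands in the column name and no time in the label. Both other lines of the series, which carry the domain on mutant SF3B1 (the mutant degron line) or on wildtype SF3B1 (the wildtype degron line), are given beside the comparison where they show how a gene stood elsewhere. The labels give each line 1 name, in a field for the clone, and whether a line is 1 clone is not stated. What belongs to the loss of the mutant allele and what belongs to the history of 1 line cannot be told apart.

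SF3B1 is the largest subunit of SF3b, the part of the U2 small nuclear ribonucleoprotein that holds the branch point of an intron. Cancer mutations in its HEAT repeats lead the spliceosome to use cryptic 3′ splice sites, and part of the resulting transcripts is degraded. In uveal melanoma they recur beside mutations of Gq signalling genes, BAP1 and EIF1AX.

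Values are rescaled FPKM, that is, fragments per length and library size, put on a scale on which the 75th percentile of every library is 10. Where 2 values follow the name of a line, the first is from the library with Shld. Library sums were 854508 and 817900 in the knockout line, against 961994 and 875923 in parental cells, and transcripts of ribosomal protein genes took 20.4% and 19.2% of them, against 22.6% and 19.0%. Absolute depth was unknown, and a unit of value stood for 1.45 and 1.04 times as many fragments in the knockout libraries, against 1 and 1.09 in the parental ones. The 21 melanocyte genes matched in the table summed to 9412 and 8656 in the knockout line, against 14860.0 and 15970.0 in parental cells. In the mutant degron line they summed to 10040 and 11900, also below parental cells, and in the wildtype degron line to 18960 and 17500. Endothelial markers summed to 0.484 and 0.36 in the knockout line, against 0.389 and 0.467 in parental cells, and epithelial markers to 0.305 and 0.53 in the knockout line, against 1 and 1.12 in parental cells, with every one of these genes under 1 in all 4 libraries. The 5 matched fibroblast markers summed to 9.25 and 13.2 in the knockout line, against 98.9 and 90.9 in parental cells. Of these, 3 were below 1 in all 4 libraries, among them the collagen gene COL1A2 and the matrix gene DCN. LUM and POSTN were expressed and are described with the matrix genes. The lymphocyte gene CD3E was listed at 0 in all 4 libraries. The 4 matched immune markers summed to 833.5 and 803.4 in the knockout line, against 743.8 and 769.7 in parental cells, nearly all of it from CD68, a lysosomal protein of macrophages and other cells, which was not called (log2 difference 0.11 ± 0.13, limma adjusted p = 0.534). Separate cultures are not stated for the 2 libraries of a line, and p-values then reflect only how far these libraries differ. The 2 libraries of a line also differ in Shld, which was no term of the main fit. Any effect of Shld is therefore part of that spread. An exact permutation test of 2 against 2 cannot go below p = 0.33, and the tests are therefore those of limma's moderated fit across all 8810 loci, with Benjamini-Hochberg adjustment.

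SF3B1 itself was examined first. Its transcript stood at 158 and 138 in the knockout line, against 266 and 239.8 in parental cells, 248 and 252 in the mutant degron line and 188 and 201 in the wildtype degron line. Both knockout libraries were the lowest of the 8. The difference from parental cells was -0.77 ± 0.12 on the log2(value + 1) scale (SE, limma, adjusted p = 0.00694), and the difference from the mean of the degron lines was -0.58 ± 0.08 (adjusted p = 0.00155). Without the parental library with Shld the difference from parental cells was -0.70, with an adjusted p of 0.0648, and with no filter on level the adjusted p was 0.0598. The values sum both alleles and do not show which allele a fragment came from.

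Of its partners, SF3B3, the SF3b subunit that encloses the HEAT repeats, rose to 59.8 and 72.7 in the knockout line, against 35.2 and 38.6 in parental cells (log2 difference 0.82 ± 0.13, limma adjusted p = 0.00703). SUGP1, a protein that works with SF3B1 in branch point choice, fell to 19 and 20.4, against 27.4 and 31.6 (-0.56 ± 0.12, adjusted p = 0.0205). The other 16 of 19 tested genes of SF3a, SF3b and the U2 particle were not called, and the list median was 0.01. For SF3B2, another core subunit, the values were 147 and 147 in the knockout line, against 145 and 168 in parental cells. All 3 calls were lost without the parental library with Shld, and with no filter on level. Over all loci 24.4% were called in this comparison, 11.7% higher and 12.7% lower in the knockout line, with a median difference of -0.03. The counts of every list below stand beside these shares.

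Genes whose transcripts SF3B1-mutant cells are known to mis-splice were split. Of 32 genes of this list, 7 rose, 5 fell and 20 were not called, with a median of -0.04, or 0.07 after quantile normalization. MAP3K7, the kinase TAK1 of inflammatory signalling, had 15.3 and 15.6 in the knockout line, against 7.96 and 7.49 in parental cells, 10.0 and 12.2 in the mutant degron line and 6.63 and 6.24 in the wildtype degron line (0.91 ± 0.12, limma adjusted p = 0.00319). TTI1, a partner of the large PI3K-like kinases, had 20.5 and 18.6 in the knockout line, against 8.48 and 9.37 in parental cells (1.05 ± 0.12, adjusted p = 0.00237). For MAP3K7 and TTI1 both knockout libraries stood above all 6 others, and so did those for DLG1, a scaffold of cell junctions, and DPH5, an enzyme of diphthamide synthesis.

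DLG1 had 18.8 and 17.7 in the knockout line, against 8.5 and 8.37 in parental cells, and DPH5 had 35 and 31.7, against 19.4 and 15.8. ARMC9 and SEPN1 rose less, by 0.56 and 0.51 on the log2 scale. Those that fell included ADAM12, a membrane metalloprotease (-1.45), the long noncoding RNA CRNDE (-1.08), the efflux transporter ABCC5 (-0.75) and HINT2 (-0.56). BRD9, a chromatin remodelling subunit with a known cryptic exon in mutant cells, was not called, at 44 and 28.4 in the knockout line, against 38.4 and 37.6 in parental cells. These are sums over the splice forms of a gene, so they show the total and not the share of a mis-spliced form. Without the parental library with Shld, or with no filter on level, 3 of these genes were called higher and 1 lower; without the parental library without Shld, 4 and 3 were. Against the mean of both degron lines the knockout line was called higher for 7 and lower for 2 of the 32, where 14.8% of all loci were higher and 15.7% lower, and both comparisons use the same knockout libraries.

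**Figure D1:**
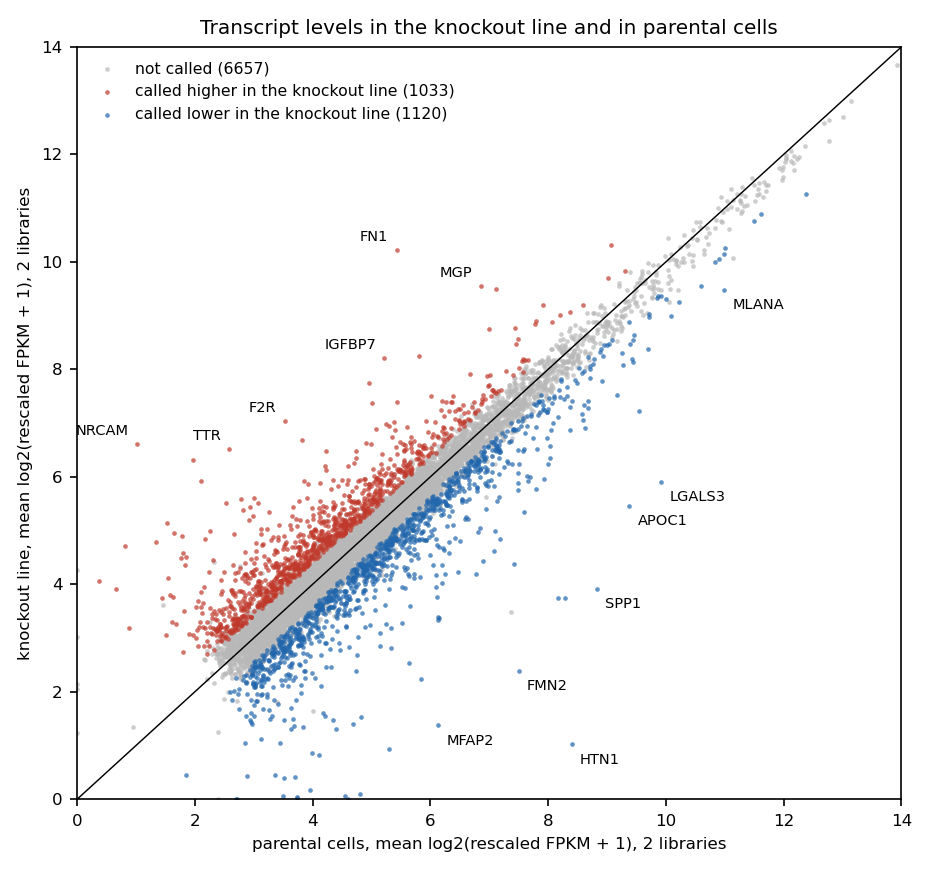
Mean log2(rescaled FPKM + 1) of the knockout line (vertical axis, 2 libraries) against that of parental cells (horizontal axis, 2 libraries) for the 8810 loci, with the line of equal level. Red points are the 1033 loci called higher and blue points the 1120 called lower in the knockout line; FN1 and NRCAM lie farthest above the line among the named points and HTN1 farthest below it.

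Across the whole table the lines differed in both directions. Of the 8810 loci, 2153 were called, 1033 higher and 1120 lower in the knockout line, and 3480 had an unadjusted p below 0.05. Among those called, 244 were at least 2-fold higher and 277 at least 2-fold lower on the log2(value + 1) scale. In each called locus both knockout libraries lay on the same side of both parental ones. The count depended on the libraries that gave the spread. With either parental library left out only the knockout pair gave it, and fewer loci were called. With the spread taken from the parental pair alone 3089 were called. The plot of mean levels shows called loci at low, middle and high expression. Over the 8810 loci the knockout libraries had Pearson correlations of 0.960 to 0.969 with those of the mutant degron line, on log2(value + 1). With the parental libraries these were 0.926 to 0.938, and with those of the wildtype degron line 0.908 to 0.923.

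The largest rises included genes of the extracellular matrix and the cell surface. NRCAM, a neuronal cell adhesion molecule of the immunoglobulin family, stood at 93.5 and 100.2 in the knockout line, against 0.891 and 1.17 in parental cells, 32.1 and 28.6 in the mutant degron line and 0.375 and 0.488 in the wildtype degron line. It was near 1 or below in both the parental and the wildtype degron libraries and high in the other 4. The log2 difference between knockout line and parental cells was 5.59 ± 0.13 (limma adjusted p = 1.11e-05). FN1, the matrix glycoprotein fibronectin, reached 1140.0 and 1253 in the knockout line, against 37.1 and 47.6 in parental cells, 296 and 268 in the mutant degron line and 38.3 and 47.9 in the wildtype degron line (4.80 ± 0.15, adjusted p = 2.33e-05). Its knockout values were the highest of the 8 libraries, with the mutant degron line next. TTR, the thyroid hormone carrier transthyretin, had 87.3 and 93.7 in the knockout line, against 4.66 and 5.28 in parental cells, 76.7 and 62.9 in the mutant degron line and 0.973 and 0.929 in the wildtype degron line (3.94 ± 0.12, adjusted p = 2.31e-05).

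TGFBI, a matrix protein induced by TGF-beta, followed another order over the lines. It had 80.7 and 43.7 in the knockout line, against 2.59 and 4.17 in parental cells, 0.84 and 0.513 in the mutant degron line and 13.9 and 10.6 in the wildtype degron line, so the mutant degron line was the lowest (3.81 ± 0.30, limma adjusted p = 0.000518). F2R, the thrombin receptor, had 131 and 129.5 in the knockout line, against 9.22 and 11.9 in parental cells (3.51 ± 0.14, adjusted p = 5.34e-05). IGFBP7, a secreted protein that binds insulin-like growth factors, had 312 and 281 in the knockout line, against 33.5 and 39.1 in parental cells (adjusted p = 6.31e-05). In all 3 genes the lower knockout library was still several times the higher parental one.

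TIMP2, an inhibitor of matrix metalloproteases, is listed at 2 loci, and the one with the lower level was among the 15 largest rises. It differed most of the 15 between the libraries of the knockout line, with 45.5 and 15.3 there, against 0.673 and 2.8 in parental cells and 25.4 and 6.04 in the mutant degron line. Its difference of 3.45 ± 0.55 (limma adjusted p = 0.00681) was no longer called without the parental library with Shld (adjusted p = 0.0757) or with no filter on level (adjusted p = 0.107). The locus with the higher level had 700.2 and 929, against 693 and 920.0 in parental cells, and was not called. The natriuretic peptide receptor NPR3 rose by 3.91 and SAMD11 by 3.60, and in both the knockout values overlapped with those of the mutant degron line. SAMD11 had 42.9 and 27.1 in the knockout line, against 1.67 and 2.12 in parental cells and 37.1 and 42.7 in the mutant degron line. The remaining named rises were CTGF, described with the YAP targets, SCRG1 (3.68), CRIM1, a membrane protein that binds bone morphogenetic proteins (3.32), EML6 (3.25), the Ras-like gene RASL11B (3.11) and B4GALT6, a glycolipid enzyme (2.99). For 12 of the 15 largest rises both knockout libraries stood above all 6 others, which held for 12.8% of the loci tested. The rises were chosen by their knockout and parental values, so their place above both parental libraries was fixed in advance.

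**Figure D2:**
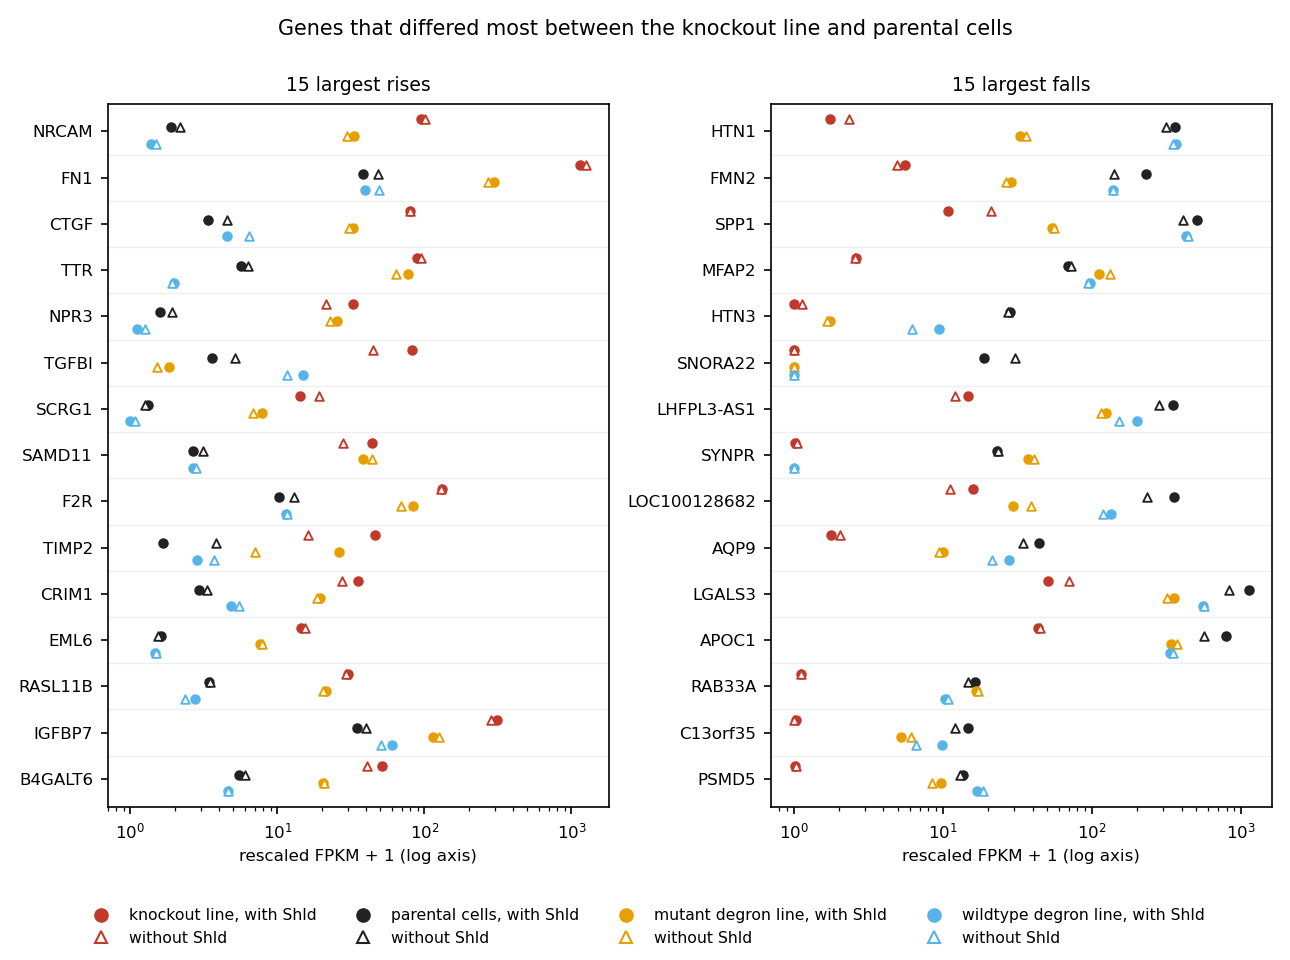
Rescaled FPKM + 1 (log axis) in each of the 8 libraries for the 15 largest rises (left) and the 15 largest falls (right) that were called, sorted by their log2 difference; the lines run from the knockout line at the top of each row through parental cells to the degron lines, with filled circles for libraries with Shld and open triangles for those without. The knockout values of NRCAM, 93.5 and 100.2, lie right of all others, and those of HTN1, 0.754 and 1.35, left of all others.

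The largest fall exceeded the largest rise. HTN1, which encodes the salivary peptide histatin, had 0.754 and 1.35 in the knockout line, against 362 and 312 in parental cells, 31.8 and 35.4 in the mutant degron line and 367 and 347 in the wildtype degron line (-7.38 ± 0.17, limma adjusted p = 1.11e-05). Its paralog HTN3 had 27.2 and 26.4 in parental cells and was listed at 0 and 0.135 in the knockout line. HTN1 and HTN3 are near copies, so the split of fragments between them is uncertain. FMN2, a formin that nucleates actin filaments, had 4.54 and 3.93 in the knockout line, against 230.4 and 139.9 in parental cells (-5.11 ± 0.23, adjusted p = 7.59e-05).

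Secreted proteins stood among the strongly expressed falls. SPP1, the secreted phosphoprotein osteopontin, had 9.84 and 20.1 in the knockout line, against 505 and 409 in parental cells, 53.2 and 54.8 in the mutant degron line and 428 and 439.9 in the wildtype degron line (-4.91 ± 0.30, limma adjusted p = 0.00018). LGALS3, a galectin that binds sugars on the cell surface, had 49.9 and 69.6 in the knockout line, against 1133 and 828 in parental cells (-4.02 ± 0.21, adjusted p = 0.000125). APOC1, an apolipoprotein, had 42.6 and 43.6 in the knockout line, against 790.4 and 559 in parental cells (-3.92 ± 0.17, adjusted p = 7.45e-05). In SPP1, LGALS3 and APOC1 the knockout values were the lowest of the 8 libraries and both degron lines lay between the knockout line and the highest parental value. MFAP2, a microfibril protein of elastic fibres, was different: it had 1.62 and 1.56 in the knockout line, against 67.8 and 71 in parental cells, 109.9 and 130.4 in the mutant degron line and 96.8 and 93 in the wildtype degron line (-4.76 ± 0.12, adjusted p = 1.11e-05).

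PSMD5, a chaperone of proteasome assembly, was nearly silent only in the knockout line, with 0.0255 and 0.0351, against 12.7 and 12 in parental cells, 8.79 and 7.41 in the mutant degron line and 16.1 and 17.6 in the wildtype degron line (-3.69 ± 0.13, limma adjusted p = 3.34e-05). RAB33A, a small GTPase, was nearly silent likewise, with 0.129 and 0.118 in the knockout line, against 15.3 and 13.8 in parental cells. SYNPR, a synaptic vesicle protein, had 0.0182 and 0.0501 in the knockout line, against 22.1 and 22.5 in parental cells and 36.1 and 39.7 in the mutant degron line, and was listed at 0 in the wildtype degron line. The water channel AQP9 fell, with a log2 difference of -4.36, as did C13orf35 (-3.71) and the noncoding loci LOC100128682 (-4.43) and LHFPL3-AS1 (-4.55). SNORA22, a small nucleolar RNA, was listed at 0 in all 6 libraries outside the parental pair. For 13 of the 15 largest falls both knockout libraries stood below all 6 others, which held for 10.9% of the loci tested. The falls were chosen by their knockout and parental values, so their place below both parental libraries was fixed in advance.

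Matrix genes rose in number. Of 24 tested genes of collagens, laminins and matrix glycoproteins, 17 rose and 3 fell, with a median log2 difference of 1.14, beside -0.03 over all loci. MGP, an inhibitor of calcification, had 702 and 803 in the knockout line, against 109.8 and 121 in parental cells (2.69 ± 0.13, limma adjusted p = 8.71e-05). COL11A1, a fibrillar collagen chain, had 395 and 468 in the knockout line, against 128 and 125 in parental cells (1.76 ± 0.13, adjusted p = 0.000322). In both genes the knockout and parental values lay far apart. The mutant degron line was higher still for MGP, at 1120.0 and 1213, and overlapped with the knockout line for COL11A1, at 414 and 399.

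The basement membrane collagens COL4A1 and COL4A2 rose by 1.53 and 1.40, and the laminin chains LAMB1, LAMA1, LAMC1 and LAMB2 by 1.61, 0.89, 0.62 and 0.53. LAMB1 had 100.3 and 93.2 in the knockout line, against 29.4 and 32.6 in parental cells, 85.5 and 84 in the mutant degron line and 55.2 and 51.5 in the wildtype degron line. The proteoglycans HSPG2 (perlecan) and BGN (biglycan) rose by 1.21 and 1.20, the collagens COL9A3, COL6A1 and COL18A1 by 1.51, 1.08 and 1.02, and MATN2 by 1.21. The 3 that fell were LUM, a small proteoglycan of collagen fibrils, POSTN (periostin) and ECM1. LUM had 1.66 and 1.61 in the knockout line, against 29.6 and 20.7 in parental cells (-3.29 ± 0.18, adjusted p = 0.000137), and POSTN had 7.53 and 11.6, against 69 and 69.9 (-2.77 ± 0.19, adjusted p = 0.000276). LUM and POSTN were also the tested genes of the fibroblast marker list, whose 5 matched genes summed to 9.25 and 13.2 in the knockout line, against 98.9 and 90.9 in parental cells, and the part of this in the matrix counts was not tested.

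Receptors for matrix and cell contact moved the same way in most tested genes. Of 14 integrins, cadherins and protocadherins, 12 rose and 1 fell, with a median of 0.85. ITGB1, the beta subunit shared by most matrix-binding integrins, had 362 and 396 in the knockout line, against 156 and 203 in parental cells (1.08 ± 0.15, limma adjusted p = 0.00447). The integrin alpha chains ITGAV, ITGA6 and ITGA5 rose by 0.86, 0.83 and 0.76, while ITGA7, a laminin receptor chain, fell to 2.03 and 2.46, against 12.9 and 10.0 (-1.93 ± 0.16, adjusted p = 0.000594). Among cadherins, FAT1 had 37.9 and 47.3 in the knockout line, against 11.4 and 12 in parental cells (1.77 ± 0.14, adjusted p = 0.000495). PCDH20, PCDH1, PCDH7 and PCDH18 rose by 1.75, 1.71, 1.27 and 1.08, and CDH2 (N-cadherin), CDH19 and the desmosomal DSG2 by 0.79, 0.79 and 0.71. Fewer of these genes were called higher without the parental library with Shld. With no filter on level 33 genes of the list were tested, of which 6 were called higher and 4 lower.

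Neural adhesion and guidance genes were less even. Of 16 tested, 6 rose and 2 fell, or 4 and 1 without the parental library with Shld. The median was 0.24, made of 0.41 with Shld and 0.12 without it. Against the mean of the degron lines the direction differed, with 5 called higher, 7 lower and a median of -0.28. Over all loci 14.8% were higher and 15.7% lower in that comparison. Beside NRCAM, ALCAM, an adhesion molecule of the immunoglobulin family, had 44.6 and 45 in the knockout line, against 7.22 and 7.54 in parental cells (2.45 ± 0.11, limma adjusted p = 7.59e-05). The secreted guidance cue SEMA3C had 19.2 and 24.1, against 2.06 and 2.79 (2.72 ± 0.17, adjusted p = 0.000201). ALCAM was higher in the knockout line than in any of the 6 other libraries, where its highest value was 12.4. The ephrin receptor EPHA2, CNTN4 and SEMA5A rose by 1.58, 1.02 and 0.99. PLXNC1, a semaphorin receptor, fell to 36.6 and 37.6, against 85.2 and 108 (-1.35 ± 0.14, adjusted p = 0.0014), and SEMA6A fell by 1.23.

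Genes controlled by YAP and its DNA-binding partners of the TEAD family were examined next. YAP and its relative TAZ are coactivators that enter the nucleus when cells spread on matrix, and CTGF is among their best known targets. Of 19 tested genes of the list 11 rose and 0 fell by limma, or 13 and 0 at an unadjusted p below 0.05, with a median of 0.81. The list also holds members of the pathway itself, and YAP1 and WWTR1 (TAZ) are among the 11. The 250 bases before the start of CTGF and FOXF2 are shown because both rose and both hold the letters that TEAD proteins bind, GGAATG on either strand, here in capitals. The sequences are RefSeq's for GRCh38.p14, 5′ to 3′ on the strand of the gene, at chr6:131951373-131951622 on the minus strand for CTGF (listed by RefSeq as CCN2) and chr6:1389326-1389575 on the plus strand for FOXF2.
CTGF: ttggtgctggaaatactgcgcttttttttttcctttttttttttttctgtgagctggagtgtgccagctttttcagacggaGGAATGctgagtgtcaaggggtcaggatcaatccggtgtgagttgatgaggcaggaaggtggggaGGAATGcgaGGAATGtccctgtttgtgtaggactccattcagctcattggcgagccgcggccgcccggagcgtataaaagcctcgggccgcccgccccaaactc
FOXF2: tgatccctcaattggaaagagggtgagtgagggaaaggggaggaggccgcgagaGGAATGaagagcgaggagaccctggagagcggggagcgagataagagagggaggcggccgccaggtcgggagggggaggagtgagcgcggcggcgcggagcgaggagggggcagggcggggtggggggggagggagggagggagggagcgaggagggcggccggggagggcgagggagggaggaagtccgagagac

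CTGF held 3 matches, the nearest starting at position -95 from the start of the transcript, and FOXF2 held 1, at -196. Of the 15 promoters of the list that matched in RefSeq, 4 held the letters, all of them among the 10 of called genes, beside 9.12% of 7008 matched promoters of tested loci and 11.9% of 27305 promoters in the table. YAP1 and PTPN14 were the other members with a match. A match describes letters in this window and is not a binding site.

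CTGF, a secreted matricellular protein, had 78.5 and 79.1 in the knockout line, against 2.4 and 3.55 in parental cells, 31.9 and 29.5 in the mutant degron line and 3.51 and 5.42 in the wildtype degron line (4.34 ± 0.16, limma adjusted p = 4.44e-05). The knockout values were the highest of the 8 libraries, with the mutant degron line between them and the others. GADD45B, a stress-inducible gene, had 41.7 and 53.1 in the knockout line, against 5.35 and 6.53 in parental cells (2.80 ± 0.16, adjusted p = 0.000152). AMOTL2, which holds YAP in the cytoplasm and is itself induced by it, had 39.6 and 41.4, against 5.17 and 6.99 (2.56 ± 0.15, adjusted p = 0.000176). The transcription factor FOXF2 had 60.7 and 47.9, against 17.6 and 20.2 (1.47 ± 0.15, adjusted p = 0.00132).

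The coactivators themselves rose less than CTGF, GADD45B, AMOTL2 and FOXF2, though not less than every called member. YAP1 had 98.4 and 94.8 in the knockout line, against 48.2 and 51.7 in parental cells (0.94 ± 0.10, limma adjusted p = 0.00183), and WWTR1, which encodes TAZ, had 45.4 and 52, against 28.7 and 33.7 (0.63 ± 0.13, adjusted p = 0.0168). AMOTL1, AJUBA, PTPN14 and FJX1 rose by 1.23, 0.92, 0.81 and 0.81. Without the parental library with Shld 7 members were called higher. Against the mean of the degron lines 9 of the 19 were called higher in the knockout line. In that mean, the mutant degron line was the one more like the knockout line by correlation over all loci.

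Genes of TGF-beta and BMP signalling included 16 that rose and 0 that fell of 25 tested by limma, or 19 and 1 at an unadjusted p below 0.05, with a median of 0.91. Ligands of this family signal through paired receptor kinases to SMAD proteins, which switch on inhibitors of the same pathway and the ID genes. Of the receptors, BMPR2, TGFBR1, ACVR1 and BMPR1A rose by 1.38, 1.19, 1.11 and 0.91. BMPR2 had 18.6 and 21.4 in the knockout line, against 6.04 and 8.21 in parental cells. The SMADs that carry the signal, SMAD9 and SMAD3, rose by 1.48 and 0.76.

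After TGFBI, the largest rises were those of SMAD6, an inhibitory SMAD, and ID3, both direct targets. SMAD6 had 27.5 and 34.2 in the knockout line, against 3.99 and 3.58 in parental cells, 23.9 and 23.9 in the mutant degron line and 3.82 and 4.57 in the wildtype degron line (2.73 ± 0.15, limma adjusted p = 0.000136). ID3 had 173 and 262 in the knockout line, against 29.5 and 30.9 in parental cells, 271 and 289 in the mutant degron line and 34.8 and 48.2 in the wildtype degron line (2.78 ± 0.19, adjusted p = 0.000306). For both genes the knockout and mutant degron libraries were high and the parental and wildtype degron libraries low, with no overlap. ID1, ID2 and ID4 rose by 1.90, 1.61 and 0.90, the inhibitor SMAD7 by 1.18, and SKIL, another feedback gene, by 1.21. NEDD9 and the actin-binding TAGLN rose by 0.75 and 0.93.

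Growth factor receptors and ligands also shifted. Of 10 receptor tyrosine kinases tested, 5 rose and 1 fell, with a median of 0.70. ERBB2 had 41.9 and 41.8 in the knockout line, against 13.5 and 16.2 in parental cells (1.44 ± 0.13, limma adjusted p = 0.000758), FGFR1 had 38.9 and 37.5, against 15.2 and 14.8 (1.29 ± 0.11, adjusted p = 0.000619), and MERTK, a receptor for the uptake of dead cells, fell by 0.74, a call that was lost with either parental library left out and with no filter on level. FGFR3, PTK7 and EPHA2 rose by 1.21, 0.97 and 1.58. Of 12 growth factors, cytokines and chemokines 4 rose and 5 fell, with a median of -0.57. KITLG, the ligand of the receptor KIT, had 13.9 and 12.2 in the knockout line, against 1.81 and 2.19 in parental cells (2.22 ± 0.14, adjusted p = 0.000204). CSF1, PDGFB and HBEGF rose by 1.39, 1.31 and 1.08. Beside SPP1, the growth factor PDGFD, the Wnt antagonist SFRP1, FGF1 and the cytokine MIF fell, with log2 differences of -2.40, -1.10, -1.06 and -0.74, and without the parental library with Shld 2 of the 12 were called higher and 2 lower.

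Of 21 matrix proteases and inhibitors tested 8 rose and 4 fell, with a median of 0.29. Against the mean of the degron lines the direction differed, with 4 called higher, 8 lower and a median of -0.15. MMP17, a membrane-bound metalloprotease, had 294 and 316 in the knockout line, against 54.1 and 55.6 in parental cells (2.45 ± 0.10, limma adjusted p = 7.16e-05). ADAM23, ADAMTS1, ADAM9, MMP14, HTRA1, TIMP3 and PLAT rose by 1.73, 1.58, 1.12, 1.02, 1.01, 0.81 and 0.65. The lysosomal protease CTSL1 fell to 186 and 180.3, against 522 and 629 (-1.64 ± 0.13, adjusted p = 0.00055), and the antiangiogenic serpin SERPINF1 fell by 1.28. The sheddase ADAM10 fell by 0.81. With the parental library with Shld left out, 4 members were called higher and 4 lower. Of 12 cytoskeletal and contractile genes VCL (vinculin), CALD1 and TAGLN rose, with a median of 0.27; without the parental library with Shld these calls were lost.

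Regulators of the neural crest, the embryonic source of melanocytes, and of epithelial-mesenchymal transition included 11 that rose and 2 that fell of 19 tested, with a median of 0.59. SNAI2, a repressor of epithelial genes, had 195 and 167 in the knockout line, against 85.1 and 79.5 in parental cells, 112 and 106 in the mutant degron line and 79.4 and 79.4 in the wildtype degron line (1.12 ± 0.12, limma adjusted p = 0.00161). Both knockout libraries were above the 6 others. PRRX1, a mesenchymal homeobox factor, had 17.4 and 17.9 in the knockout line, against 4.23 and 5.04 in parental cells (1.73 ± 0.13, adjusted p = 0.000402). HMGA2, a chromatin protein of embryonic tissue, had 10.5 and 10.2, against 2.5 and 2.54 (1.69 ± 0.12, adjusted p = 0.000327).

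The SOX factors SOX4, SOX9, SOX8 and SOX6 rose by 1.17, 1.06, 1.03 and 0.59, and FOXD3, a marker of early neural crest, by 0.71. GLI2, TFAP2C and HEY1 rose by 1.13, 0.49 and 0.45. ETV5 and ETV4, ETS factors induced by MAP kinase signalling, fell, with log2 differences of -1.15 and -0.75. ETV5 had 71.4 and 76.9 in the knockout line, against 168 and 164 in parental cells. Fewer members were called higher with either parental library left out. With no filter on level 33 members were tested, of which 6 were called higher and 2 lower.

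**Figure D3:**
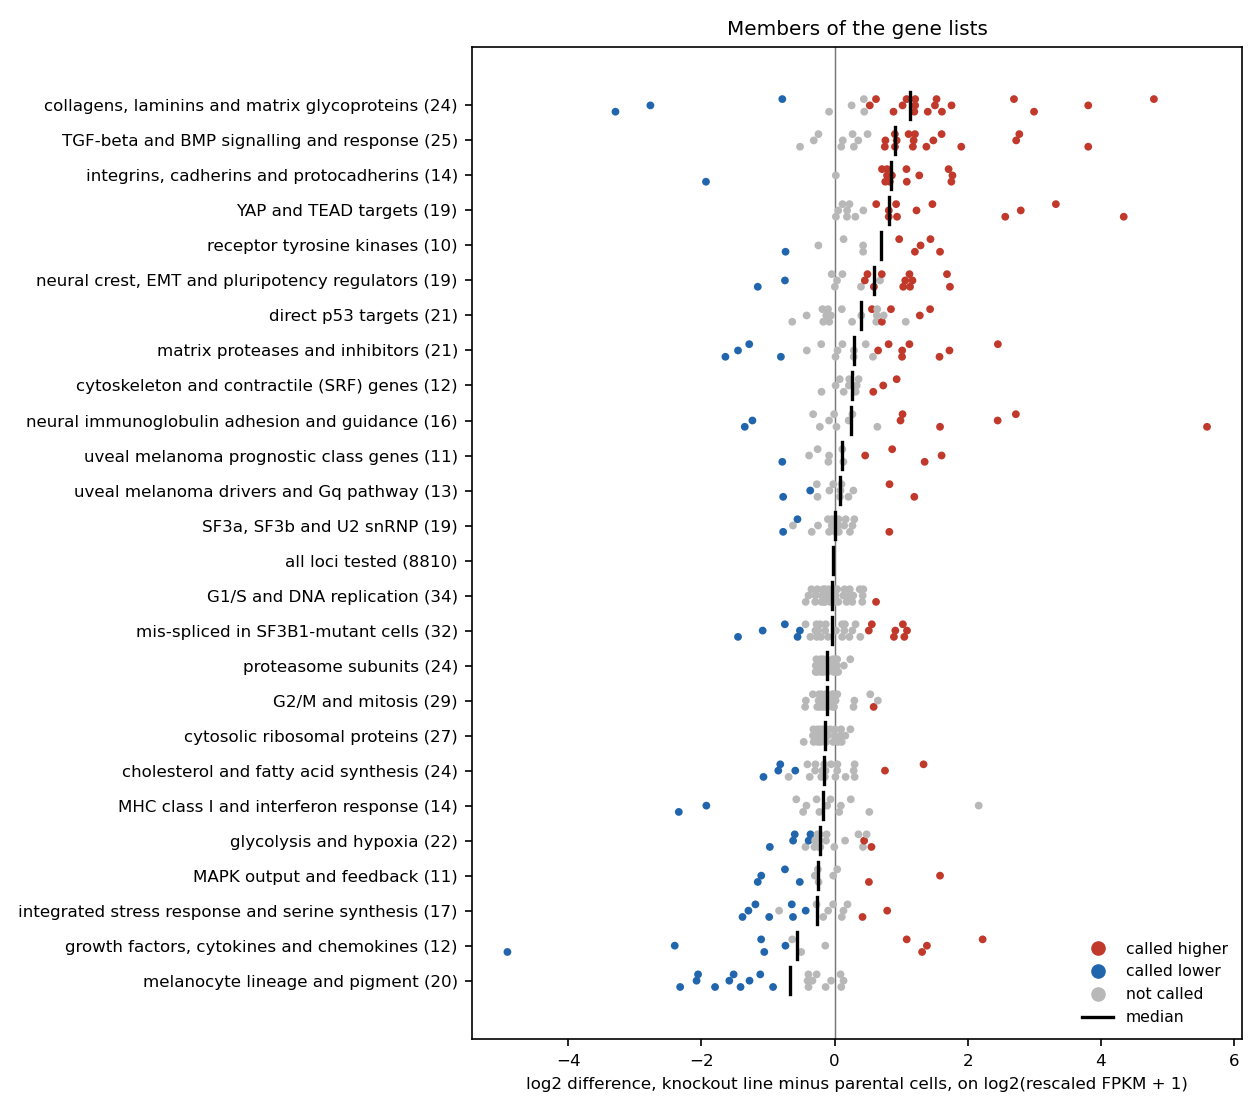
Log2 difference, knockout line minus parental cells, for each tested member of the gene lists with at least 10 tested members, sorted by the list median; the number tested stands beside each name, and the row of all loci shows its median only. Red and blue points are members called higher and lower, grey points were not called, and black bars are medians, which run from 1.14 for matrix genes to -0.66 for melanocyte lineage and pigment genes.

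The pigment programme ran the other way. Melanocytes make melanin in melanosomes with the enzymes TYR, TYRP1 and DCT, on a matrix of PMEL, and the transcription factor MITF drives these genes by binding E-box motifs. Of 20 tested genes of the lineage 10 fell and 0 rose by limma, or 13 and 0 at an unadjusted p below 0.05, with a median of -0.66, which was -0.73 between the libraries with Shld and -0.74 between those without. In bulk RNA a smaller share of pigmented cells and less of this RNA per cell cannot be told apart. TYR and MLPH both fell, and the 250 bases before their starts are shown with the E-box letters CATGTG or CACGTG, on either strand, in capitals. The sequences are RefSeq's for GRCh38.p14, both on the plus strand, at chr11:89177625-89177874 for TYR and chr2:237487001-237487250 for MLPH.
TYR: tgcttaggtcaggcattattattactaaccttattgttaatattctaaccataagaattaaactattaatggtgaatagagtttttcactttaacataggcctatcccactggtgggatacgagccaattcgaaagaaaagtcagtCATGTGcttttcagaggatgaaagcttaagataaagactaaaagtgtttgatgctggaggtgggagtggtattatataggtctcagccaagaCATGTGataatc
MLPH: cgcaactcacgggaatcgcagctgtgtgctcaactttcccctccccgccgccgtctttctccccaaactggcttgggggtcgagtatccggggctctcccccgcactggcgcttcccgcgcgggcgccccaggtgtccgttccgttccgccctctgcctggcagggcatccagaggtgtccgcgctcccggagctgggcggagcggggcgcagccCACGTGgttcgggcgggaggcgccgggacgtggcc

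TYR held 2 matches, the nearest at position -12 from the start, and MLPH held 1, at -35. Of 17 promoters of the list that matched in RefSeq, 9 held such letters, 5 of them among the 8 of genes that fell, beside 13.7% of promoters of tested loci and 15.5% of all promoters in the table. SLC24A5, OCA2 and TSPAN10 were the other falling genes with a match. MLANA, DCT and RAB27A fell and held none, while TYRP1, GPR143, GPNMB and EDNRB held a match and were not called.

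TYR had 127 and 161 in the knockout line, against 361 and 403 in parental cells, 157 and 194 in the mutant degron line and 502 and 562 in the wildtype degron line (-1.41 ± 0.15, limma adjusted p = 0.00145). MLANA, an antigen of melanosome membranes, had 723 and 703 in the knockout line, against 2283 and 1824 in parental cells (-1.52 ± 0.16, adjusted p = 0.00152). PMEL had 2585 and 2365, against 4796 and 5992 (-1.12 ± 0.20, adjusted p = 0.0095). For MLANA and PMEL the knockout values were the lowest of the 8 libraries, and for TYR they overlapped with the mutant degron line and lay below the other 4.

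DCT, at low level, had 2.04 and 1.15 in the knockout line, against 12.8 and 10.8 in parental cells (-2.32 ± 0.19, limma adjusted p = 0.000634). OCA2, a melanosome transporter, had 5.4 and 5.42, against 24.4 and 27.6, and 71.1 and 67.1 in the wildtype degron line (-2.07 ± 0.12, adjusted p = 0.000176). RAB27A and MLPH, partners that tether melanosomes to actin, fell, with log2 differences of -2.05 and -1.58, with 49.4 and 43 for MLPH in the knockout line, against 143 and 137 in parental cells. TSPAN10, the exchanger SLC24A5 and RAB38, a GTPase of melanosome traffic, fell, with log2 differences of -1.80, -1.28 and -0.92. MITF was not called against parental cells, at 135 and 139 in the knockout line, against 162 and 184 in parental cells (-0.33 ± 0.11, adjusted p = 0.077). Against the mean of the degron lines its difference was -0.35 ± 0.08 (adjusted p = 0.0126). TYRP1 was not called against parental cells either, at 3349 and 2786 in the knockout line, against 3958 and 4133, nor was SOX10, at 244 and 254 in the knockout line, against 287 and 315.

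**Figure D4:**
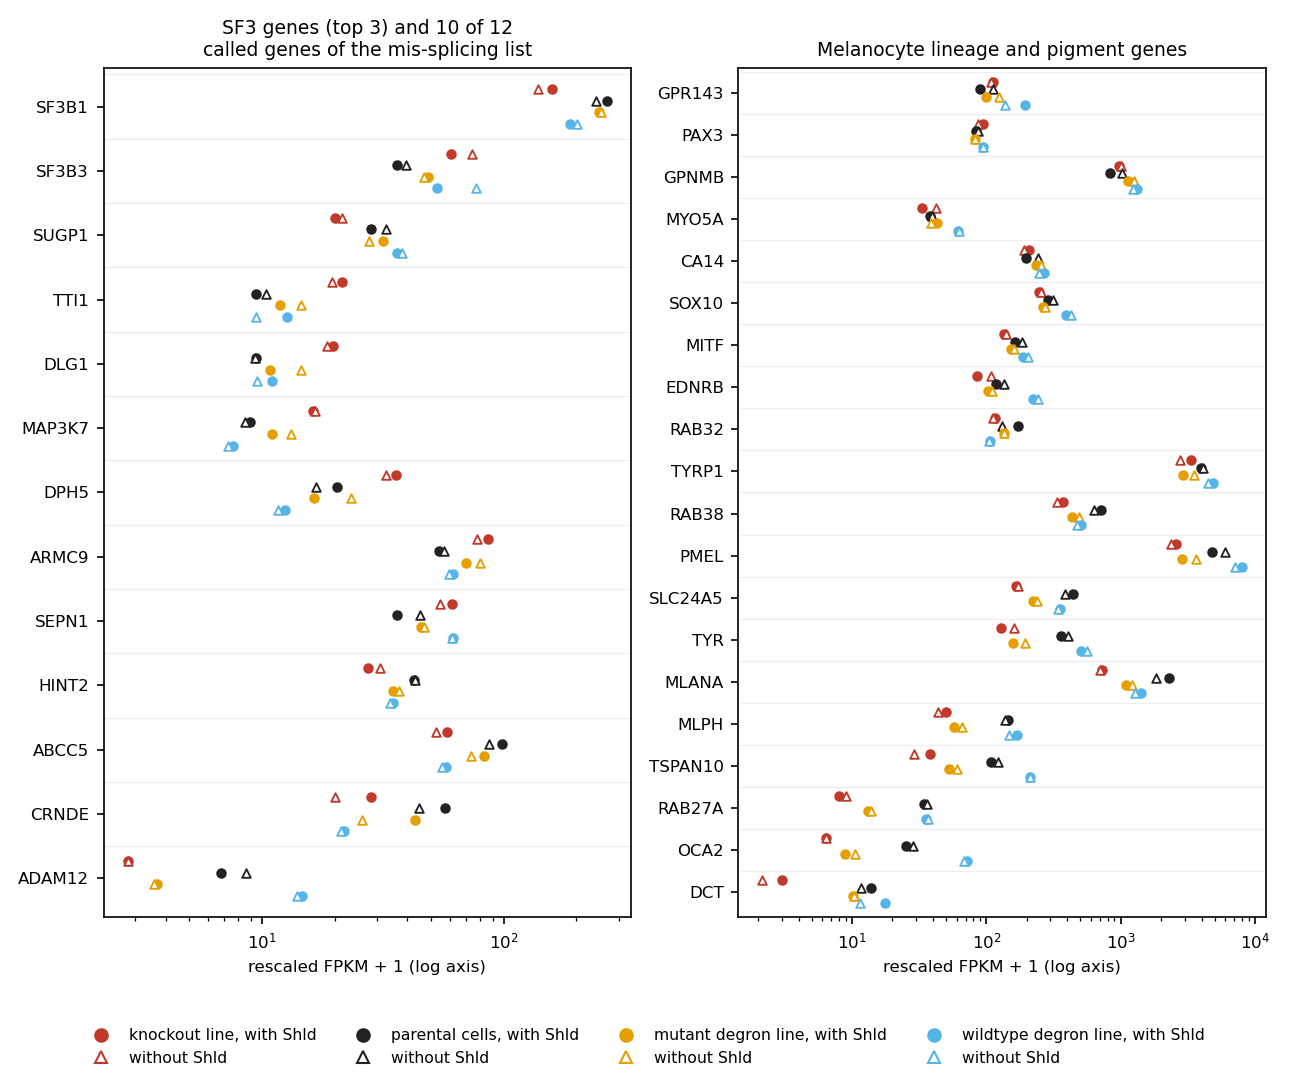
Rescaled FPKM + 1 (log axis) in each of the 8 libraries for SF3B1, SF3B3, SUGP1 and 10 of the 12 called genes of the mis-splicing list (left) and the 20 tested melanocyte genes (right), drawn as in the plot of the largest changes. SF3B1 is lowest in the knockout libraries, at 158 and 138, and the pigment genes in the lower rows, from RAB38 down to DCT, have their knockout values left of both parental ones.

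Of 13 genes of uveal melanoma drivers and Gq signalling, 15.4% were called higher and 15.4% lower, close to the 11.7% and 12.7% over all loci. The kinase PRKCA and the exchange factor TRIO rose by 1.20 and 0.83 while SF3B1 was among 2 that fell, and the median was 0.08. With no filter on level 15 genes of the list were tested, of which 1 was called higher and 0 lower. Fewer were also called with either parental library left out. PRKCA had 37.9 and 42 in the knockout line, against 16.7 and 17 in parental cells (1.20 ± 0.11, limma adjusted p = 0.00103). The recurrently mutated genes BAP1 and EIF1AX were not called, with 52.8 and 58.3 in the knockout line, against 45.5 and 50.4 in parental cells for BAP1. Of 11 genes of the prognostic classes ID2, SATB1, RAB31 and HTR2B rose and ECM1 fell. In the known signature ID2 and SATB1 mark the low-risk class and RAB31, HTR2B and ECM1 the high-risk class. SATB1 had 16.4 and 17.9 in the knockout line, against 5.93 and 6.24 in parental cells, and HTR2B had 63.2 and 65.8, against 45.2 and 48. The fall of ECM1 was not called with either parental library left out, and the 4 rises became 2 without the parental library with Shld. Of 11 genes of MAPK output 2 rose, EPHA2 and MYC, and 4 fell, ETV5, ETV4, IER3 and EGR1, with a median of -0.25, made of -0.49 with Shld and -0.02 without it; without the parental library with Shld 1 member was called, lower, and without the other parental library 1 higher and 1 lower.

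Some lists differed between the Shld states, which are described with 1 library a side and no test. Of 21 direct p53 targets 5 rose and 0 fell by limma, or 8 and 1 at an unadjusted p below 0.05. The called shares were 23.8% higher and 0% lower, beside 11.7% and 12.7% over all loci. Their median was 0.40, made of 0.11 with Shld and 0.65 without it. CDKN1A, the cyclin-dependent kinase inhibitor p21, was not called, with 88.9 and 296 in the knockout line, against 98.9 and 109 in parental cells; the knockout library without Shld stood apart from the other 3. The called members were TP53INP1, ZMAT3, XPC, AEN and FAS. TP53INP1 had 42.1 and 85.9 in the knockout line, against 21.2 and 22.1 in parental cells (1.44 ± 0.30, limma adjusted p = 0.0167). It was above both parental values in either state. With either parental library left out, or with no filter on level, all 5 calls were lost, and without the knockout library with Shld 12 members were called higher, and without the other knockout library 6 higher and 3 lower.

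Among 34 tested G1/S and replication genes 1 rose, CCNE2, and of 29 of G2/M and mitosis, 1 rose, CENPF, with 0 falling in either list; at an unadjusted p below 0.05 these counts were 4 and 0 for G1/S and 2 and 0 for G2/M. These counts turned on the knockout library used. Without the one with Shld, 8 G1/S genes and 13 G2/M genes were called lower, while without the one without Shld 8 and 5 were called higher; with either parental library left out, 0 were called in either list. The G1/S median was -0.03, or 0.03 after quantile normalization, made of 0.18 with Shld and -0.21 without it, and the G2/M median was -0.11, made of 0.21 and -0.39. TOP2A, the topoisomerase of dividing cells, had 148 and 84.6 in the knockout line, against 117 and 122 in parental cells, so the knockout library with Shld was the highest of the 4 and the one without it the lowest. In contrast, the medians of the YAP list were 0.73 with Shld and 0.75 without, and those of the matrix genes 1.10 and 1.12.

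**Figure D5:**
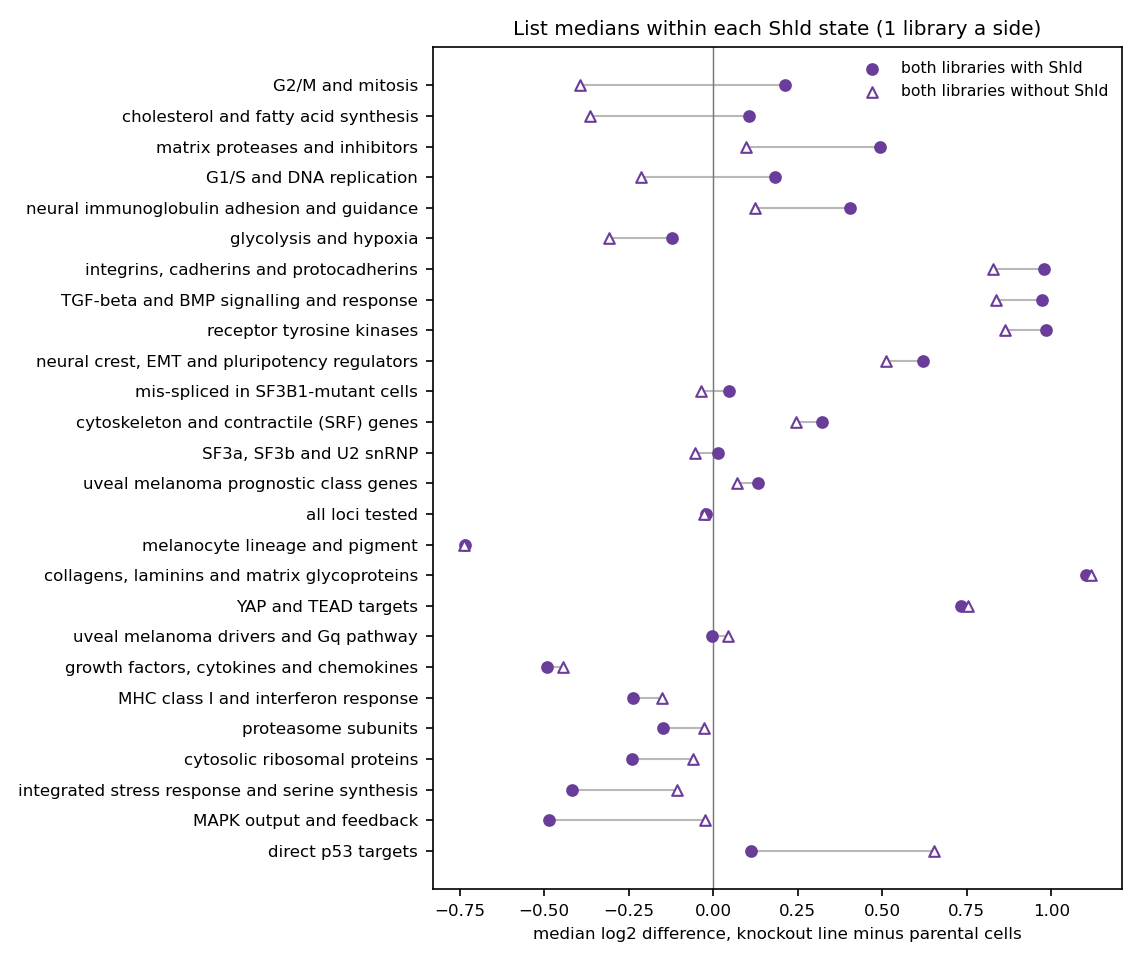
Median log2 difference, knockout line minus parental cells, of each list with at least 10 tested members, taken between the libraries with Shld (filled circles) and between those without Shld (open triangles), 1 library a side. Matrix, YAP and pigment medians nearly coincide, while those of G2/M and mitosis lie at 0.21 and -0.39 and those of p53 targets at 0.11 and 0.65.

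Of 17 genes of the integrated stress response and serine synthesis, 7 fell and 2 rose, with a median of -0.27. TRIB3, a pseudokinase induced by ATF4, had 24.2 and 26.6 in the knockout line, against 69.1 and 66.4 in parental cells, 24.7 and 23.6 in the mutant degron line and 64.8 and 74.5 in the wildtype degron line (-1.38 ± 0.11, limma adjusted p = 0.000507). DDIT3, the transcription factor CHOP, had 28.9 and 38.1, against 83.7 and 82 (-1.29 ± 0.15, adjusted p = 0.002). The amino acid transporter SLC7A5, NUPR1, CEBPB, and the serine pathway enzymes PSAT1 and SHMT2 fell, with log2 differences of -1.19, -0.98, -0.64, -0.62 and -0.43. PHGDH, the first enzyme of serine synthesis, rose to 185 and 125, against 79.7 and 95.7 (0.79 ± 0.20, adjusted p = 0.0318), and MTHFD1L by 0.42. With no filter on level 20 genes of the list were tested, of which 1 was called higher and 1 lower. Fewer were also called with either parental library left out.

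Of 24 genes of cholesterol and fatty acid synthesis 2 rose and 4 fell, a share close to the 24.4% called over all loci. The median was -0.15, made of 0.11 with Shld and -0.37 without it. SQLE, an oxygen-dependent enzyme of the sterol pathway, had 464 and 406 in the knockout line, against 153 and 192 in parental cells (1.34 ± 0.15, limma adjusted p = 0.00191), while STARD4, INSIG1 and MVD fell, with log2 differences of -1.07, -0.85 and -0.82. Of 22 genes of glycolysis and hypoxia 2 rose, HK1 and HK2, and 5 fell, led by the carbonic anhydrase CA12 at -0.97. These are 9.09% higher and 22.7% lower, beside 11.7% and 12.7% over all loci. Leaving out the parental library with Shld, 1 sterol gene was called higher and 1 glycolysis gene lower. Of 14 tested genes of antigen presentation and interferon response 2 fell, IFI6 and IFITM3, and 0 rose, or 5 and 2 at an unadjusted p below 0.05. The share called lower was 14.3%, near the 12.7% over all loci. IFI6 had 3.54 and 5.05 in the knockout line, against 24.5 and 26.7 in parental cells (-2.34 ± 0.17, adjusted p = 0.00032), and IFITM3 had 15.7 and 18.4, against 64.9 and 70.3 (-1.93 ± 0.12, adjusted p = 0.000223). HLA-C, one of the class I heavy chains, was not called. It had 10.4 and 12.2 in the knockout line, against an estimate near 0 with Shld and 6.48 without it in parental cells, and its fragments can be shared with other class I genes.

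Of 24 proteasome subunits and 27 cytosolic ribosomal proteins, 0 were called against parental cells by limma, where 1 and 0 had an unadjusted p below 0.05. Their medians were -0.11 and -0.14, and that of the ribosomal proteins was 0.10 after quantile normalization. Against the mean of the degron lines, which uses the same knockout libraries, 24 of the 27 ribosomal proteins were called higher in the knockout line. Ribosomal protein transcripts took 17.9% and 18.3% of the sum in the mutant degron line. In the wildtype degron line they took 13.3% and 13.0%, and both lines were below the knockout values. That share is itself a sum over ribosomal protein genes, so it is not separate from this count. Both knockout libraries stood above all 6 others for 3 of the 27, beside 12.8% of all loci. Of 3 tested Schwann cell and neural markers 2 rose and 1 fell. The neuronal tubulin TUBB3 rose by 0.52, and S100B fell to 20.7 and 33.8 in the knockout line, against 88.8 and 70.1 in parental cells (-1.54 ± 0.23, limma adjusted p = 0.00574). S100B is expressed in Schwann cells and also in the melanocyte lineage; its call was lost without the parental library with Shld, as was 1 of the 2 rises.

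A few genes were present in one line and near absent in the other, taken as at least 5 in both libraries of one and at most 0.5 in both of the other. In the knockout line 7 loci were on and off in parental cells, of which 3 were small nucleolar RNAs. The others, named after their values were seen, were SCRG1, DKK1, CDH6 and ADAMTS16. DKK1, a secreted Wnt antagonist, had 9.63 and 7.26 in the knockout line, against 0.107 and 0.165 in parental cells, 7.95 and 6.83 in the mutant degron line and 0.0608 and 0.134 in the wildtype degron line. The cadherin CDH6 had 8.58 and 5.82, against 0.0236 and 0.0218. In parental cells 12 loci were on and off in the knockout line. Beside HTN3, SNORA22, SYNPR, RAB33A, C13orf35 and PSMD5 they were, again named after their values were seen, GPRIN3, POU3F1, TTC23L, GCHFR, MX2 and LRAT. POU3F1, a transcription factor of the neural lineage, had 0.382 and 0.283 in the knockout line, against 12.7 and 11.1 in parental cells.

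Tested genes were also ordered along each chromosome by RefSeq's gene table, and the median difference was taken in every run of 30 neighbours, for 8457 placed genes. The median over all runs was -0.02. The highest run, from RGS16 to KIF14, had a median of 0.43, with 12 genes called higher and 3 lower, and was followed, among runs that share no gene with those already named, by those from TP53INP1 to EIF3E at 0.33 and from LYSMD3 to REEP5 at 0.27. The lowest run, from HDAC9 to SCRN1, had a median of -0.38, with 2 called higher and 12 lower, before, chosen the same way, those from SLC3A2 to SAC3D1 at -0.31 and from BRMS1 to NDUFS8 at -0.27. The run from RGS16 to KIF14 had medians of 0.37 with Shld and 0.47 without it, and that from HDAC9 to SCRN1 -0.47 and -0.36.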

How the data were processed

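RNA sequencing of 8 libraries of MEL202 cells gave 1 deposited table of 32087 loci. Per the labels' protocols, TruSeq libraries were read as paired ends on a HiSeq2500. Per the submitters' processing notes, the authors used TopHat, Cufflinks and the hg19 build; for tool versions, annotation and strand use nothing was given in the sources used here. Values deposited by the authors are FPKM-type values rescaled per library, with a 75th percentile of 10. That FPKM was the input is inferred from Cufflinks and the values. They are not counts, and the relative fragments behind a unit of value were estimated from values between 0.001 and 0.3.

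Columns were matched to samples by name. Named loci averaging 5 or more across 8 libraries were fitted on log2(value + 1) with limma 3.58.1 in R 4.3.3 (empirical Bayes with a mean-variance trend, 2 residual and 4.52 prior degrees of freedom). Calls are Benjamini-Hochberg adjusted p below 0.05. On log2(value + 1) the change of low genes is understated. The tested set held 146 small RNA loci and 66 symbols with more than 1 locus; list members were read at the locus with the higher level. A second fit of all 8 libraries compared the knockout line with the mean of both degron lines. The fits were checked on simulated data. Lists are described by counts and medians without a set test, and members not matched by symbol or under the level filter were left out: of 803 listed symbols in 30 lists 713 were found and 481 tested. The text names the 15 largest rises and 15 largest falls among called loci, SF3B1, list members, genes on in one of the compared lines and off in the other, and the ends of gene runs; a few members that were not called, such as SF3B2, BRD9, BAP1, EIF1AX, TOP2A and CENPE, were picked after their values were seen. Genes, lists and tests were chosen with earlier results of these data known. Promoter sequences are RefSeq's, GRCh38.p14, matched by symbol. Alternatives covered the pseudocount, level filter, scaling, source of the spread, Shld state as a block and each library left out. A few list members are counted but not reported here by name.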

Additional observations from a re-analysis of the deposited data

Results flagged for a closer look

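The 29 tested genes of G2/M and mitosis had medians of opposite sign in the 2 Shld states. Their median log2 difference between knockout line and parental cells was 0.21 with Shld and -0.39 without it, a gap of 0.604. The difference between the states was not tested, since each has 1 library a side. In the comparison of the lines 1 of these genes was called higher and 0 lower by limma, and 2 and 0 had an unadjusted p below 0.05. Without the knockout library with Shld 0 were called higher and 13 lower, and without the other knockout library 5 and 0. CENPE, a kinetochore motor, had 12.1 and 6.71 in the knockout line, against 6.24 and 8.25 in parental cells.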

How the results depend on the processing

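The call count of 2153 (1033 higher, 1120 lower) depended on the level filter and on the libraries that gave the spread. It was 3089 with the spread taken from the parental pair alone. With each library left out in turn it ran from 474 to 2658, with 220 to 1199 higher and 254 to 1459 lower; the lone library was then assumed to vary like the others. With no filter on level 1027 loci were called, 442 higher and 585 lower, and with the spread taken from all 4 pairs 3410, 1616 higher and 1794 lower. With the replicate block by Shld state 2552 were called, 1175 higher and 1377 lower; the numbers mark the Shld state and not a shared culture. Quantile normalization gave 1123 higher and 1037 lower, and leaving out small RNA loci, an alternative chosen after seeing the data, 2327 in all. The comparison with the degron lines stayed between 2292 and 2782 with a knockout or parental library left out; no degron library was left out. Of the 31 named genes, SF3B1 and the lower TIMP2 locus lost their call without the parental library with Shld and with no filter on level, and the direction of all 31 held in each alternative run. With limits of 2 and 0.2, 13 loci were on in the knockout line and off in parental cells, and 23 the reverse; the degron lines had no part in this rule. Runs of 60 genes had a highest median of 0.299 and a lowest of -0.202. Unknown depth limits the precision of low values, and 1 library per line and Shld state allows no test within a state.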
